A study of Mus musculus with 6 samples.

Results

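The MYC network is a family of transcription factors that share a helix-loop-helix leucine zipper and bind DNA as pairs. Its 10 genes described here, Myc, Mycn, Mycl1, Max, Mxd1, Mxd3, Mxd4, Mxi1, Mnt and Mga, were taken by exact match of the gene name printed in the scanner files, 10 of 27962 gene names on the array, with all 20 of their probes. RNA levels were read in mouse embryonic stem (ES) cells kept in culture, pluripotent cells with an F1 background of the 129 and C57BL/6 strains. One group received a scrambled control siRNA and the other an siRNA against BRG1, the SWI/SNF chromatin-remodelling ATPase encoded by Smarca4. Treatment lasted 48 h in both groups, 500 ng of total RNA was labelled per sample, and each group had 3 samples, each on 1 single-colour array. Whether the 3 samples of a group were separate cultures is not given, and p-values here cover the spread among the samples, which may be technical. The labels name no ES cell line, no siRNA sequence and no feeder layer.

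MYC, MYCN and MYCL are the activating members: each pairs with MAX and binds E-box motifs near genes for growth, nucleotide synthesis and ribosome production. MAX also pairs with MXD1, MXD3, MXD4, MXI1 (also called MXD2) and MNT, which recruit SIN3-HDAC corepressors to the same motif, and with MGA, which brings in a variant Polycomb complex. In ES cells MYC and MYCN overlap in supporting growth and self-renewal, and MAX and MGA help to keep germ cell genes silent.

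Myc rose and Mycl1 fell with BRG1 siRNA, the latter 1.95-fold, while the levels of Max, the MXD genes, Mnt and Mga did not pass the test. Mycn gave different answers on its pair of probes, and the cause was not tested. The Mycn probe that rose is shown with the sequence of a Myc probe that also rose. These probes resemble each other more than any other pair from different genes among Myc, Mycn and Mycl1. Bases identical between the aligned probes are in capitals, 5′ to 3′.
Myc probe A_52_P278549: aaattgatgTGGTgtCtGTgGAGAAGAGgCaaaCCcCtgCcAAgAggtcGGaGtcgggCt
Mycn probe A_51_P497332: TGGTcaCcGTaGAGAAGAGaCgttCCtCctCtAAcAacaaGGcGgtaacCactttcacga
The first lies at chr15:62063665-62063724 on the plus strand and the second at chr12:13000197-13000256 on the minus strand of mouse build mm7. They shared 27 of 51 aligned bases (52.9%), with a longest shared run of 8 bases, against 36.4% to 43.5% and runs of 5 to 7 bases for the other pairs. Each has at least 1 reading frame without a stop codon, whereas the other Mycn probe, A_52_P536494 at chr12:12999078-12999137, has 0. Myc probe A_52_P108346, which also rose, has 0 as well. The deposited files give no exon or UTR annotation for the probes.

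Values are log2 signals relative to the 75th percentile of all non-control spots of the same array, so 0 is that percentile, and they show a gene against itself between groups, not 1 gene against another. A gene was represented by its brightest probe and tested with limma if all arrays of at least 1 group had that probe well above background, with Benjamini-Hochberg adjustment over 17758 genes and a threshold of 0.05. Between 60.9% and 75.3% of spots per array were well above background. The targeted gene, Smarca4, lay at 4.32, 4.36 and 4.23 on the control arrays and at 3.76, 3.74 and 3.60 on the BRG1 siRNA arrays, a fall of 0.60 ± 0.06 (SE; adjusted p = 0.00365). With spike-in scaling it was -0.39 and did not pass the test (adjusted p = 0.117). Its other probes fell by 0.87 and 0.59 (adjusted p over probes 0.00181 and 0.00862). Spike-in scaling put them at -0.65 and -0.38 (adjusted p over probes 0.0167 and 0.131), and only the former passed. Of all genes tested, 23.3% passed the test, 9.87% raised and 13.4% lowered, and the median change was -0.04. Scaling to spike-in probes moved that median to 0.18, and with it the share of raised genes among those called went from 42.3% to 80.0%. All 3 control arrays and BRG1 siRNA replicate 1 shared a slide (slide 1) and a scan, and BRG1 siRNA replicates 2 and 3 shared the other. A fit with the slide as a block therefore takes each change from BRG1 siRNA replicate 1 against the 3 controls, as within slide 1. BRG1 siRNA replicates 2 and 3 add only to its estimate of the spread, so the 2 fits are not separate checks. In bulk RNA, fewer cells that express a gene and less of its RNA per cell cannot be told apart.

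Of the 10 genes, 1 was raised and 1 lowered, 20% against 23.3% of all genes, and the median change was 0.01. The groups did not overlap for 5 of 10, against 44.0% of all genes, so neither share stood far from the background. All 10 brightest probes were well above background on all 6 arrays. At the level of probes, 18 of 20 could be tested, of which 4 were raised and 1 lowered, against 8.6% raised and 11.0% lowered (19.6% in all) of 26258 probes. The groups did not overlap on 10 of the 18, against 41.7% of all probes tested. The 4 raised probes were all of Myc or Mycn, and the lowered one was Mycl1.

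**Figure D1:**
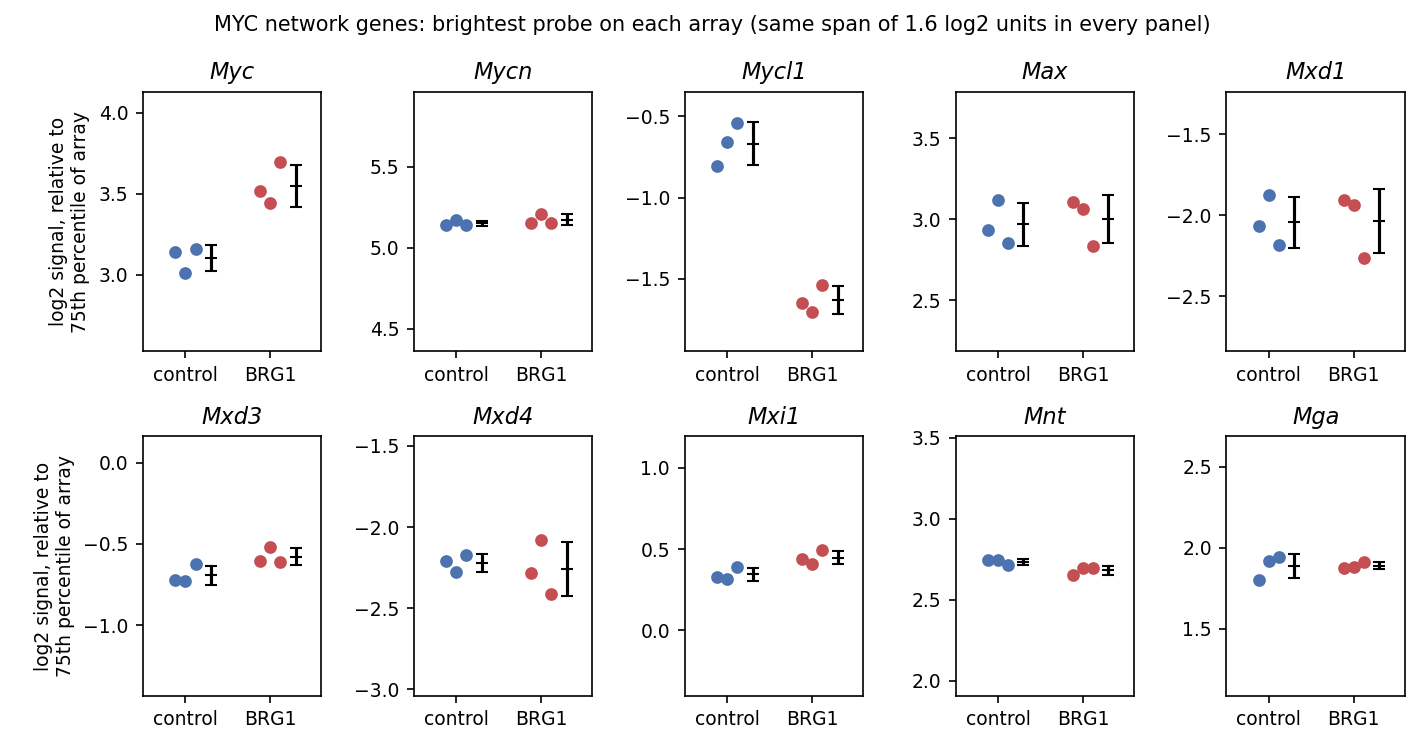
Signal of the brightest probe of each MYC network gene on each array, as log2 relative to the array's 75th percentile; every panel spans 1.6 log2 units at its own level. Points are arrays, and bars are the mean ± SD (n = 3 per group). The Myc points of the BRG1 siRNA group all lie above the control points, the Mycl1 points all lie below them, and those of Max, Mxd1, Mxd4, Mga and Mycn overlap.

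Myc, the proto-oncogene that gives the network its name, was read by 3 probes. The brightest, A_51_P102096 at chr15:62064256-62064316 (mm7), lay at 3.14, 3.01 and 3.16 on the control arrays and at 3.52, 3.44 and 3.69 on the BRG1 siRNA arrays. The means were 3.10 ± 0.08 and 3.55 ± 0.13 (SD, n = 3), a rise of 0.45 ± 0.08 (SE) or 1.36-fold (adjusted p = 0.0158). Every BRG1 siRNA array was above every control array. Probe A_52_P108346, at chr15:62064157-62064216, read 2.56, 2.33 and 2.50 against 2.89, 2.79 and 3.01, a rise of 0.43 ± 0.09 (adjusted p over probes 0.0230). The probe printed above, A_52_P278549, read 0.23, 0.07 and 0.17 against 0.58, 0.63 and 0.73, a rise of 0.49 ± 0.06 (adjusted p over probes 0.00726). The 3 probes lie within one stretch of the gene and share its RNA, so they are not 3 independent measurements.

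The brightest Myc probe was printed 10 times on each array. Its 10 spots had SDs of 0.04 to 0.06 on 5 arrays and 0.31 on control replicate 1, where 1 spot lay at 2.27 and the highest at 3.30. Taking the median over the spots, chosen after seeing the data, gave a rise of 0.41 ± 0.09 (SE, adjusted p = 0.0296). With the slide as a block the Myc rise was 0.41 and no longer passed the test (adjusted p = 0.111). Within slide 1, which holds 1 BRG1 siRNA array, it was 0.41 by construction, because both fits take the change from that array. The call was also lost without control replicate 2 (0.40), control replicate 3 (0.47) or BRG1 siRNA replicate 1 (0.46), and with no filter on dim probes (adjusted p = 0.0558), while the direction stayed. The probe printed above kept its call with each of the 6 arrays left out in turn, with values of 0.45 to 0.53, and lost it with the slide as a block (0.42, adjusted p over probes 0.0684).

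Mycn, the paralogue best known from neuroblastoma and one of the MYC factors active in ES cells, did not give one answer. Its brightest probe, A_52_P536494, lay at 5.14, 5.17 and 5.14 on the control arrays and at 5.15, 5.21 and 5.15 on the BRG1 siRNA arrays. The difference was 0.02 ± 0.04 (SE, 95% interval -0.07 to 0.12, adjusted p = 0.722), and the groups overlapped. The probe printed above, A_51_P497332, lay at 1.01, 0.94 and 0.96 against 1.36, 1.26 and 1.20, a rise of 0.30 ± 0.06 or 1.24-fold (adjusted p over probes 0.0190). All 3 BRG1 siRNA arrays were above all 3 controls on that probe.

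The gap between the Mycn probes was tested directly. Per array, the second probe minus the first was -4.13, -4.23 and -4.18 in the controls and -3.79, -3.95 and -3.96 with BRG1 siRNA, a shift of 0.28 (two-sided exact permutation p = 0.1, the smallest that 3 against 3 arrays can give). The groups did not overlap in this gap, and the pair was compared after its values were seen. With the slide as a block the second probe's rise was 0.39 and passed the test (adjusted p over probes 0.0489). Its call was lost without control replicate 2 (0.29), control replicate 3 (0.30) or BRG1 siRNA replicate 2 (0.31), with median scaling (0.36, adjusted p over probes 0.084) and within slide 1 (0.39, adjusted p over probes 0.0842). Averaging both probes put the gene itself past the threshold (adjusted p = 0.0434).

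Mycl1 (now Mycl), the paralogue first found in lung cancer, had a single probe at chr4:122446951-122447010 (mm7, plus strand). It lay at -0.80, -0.66 and -0.54 on the control arrays and at -1.65, -1.71 and -1.54 on the BRG1 siRNA arrays. The groups stood well apart, with means of -0.67 ± 0.13 and -1.63 ± 0.09 (SD, n = 3). The fall was 0.96 ± 0.08 (SE) or 1.95-fold (adjusted p = 0.00234). Of all genes tested, 153 (0.862%) were called with a change at least as large. The call held with the slide as a block (-0.98, adjusted p over probes 0.0378) and with each of the 6 arrays left out in turn (-1.03 to -0.90). Within slide 1, 1 BRG1 siRNA array stood against 3 controls. The difference there was -0.98, the same contrast as with the block, but the call was lost.

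**Figure D2:**
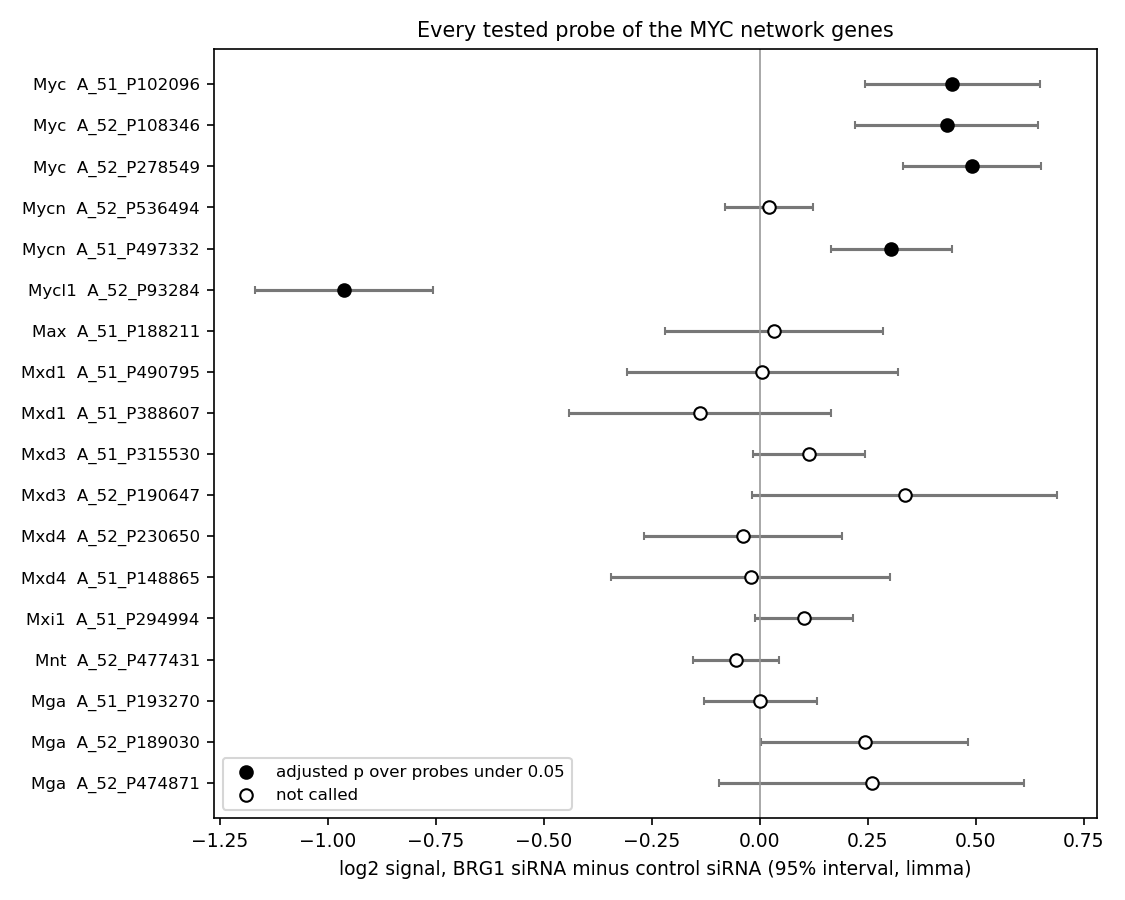
Change of each of the 18 tested probes of the MYC network genes, as log2 signal with BRG1 siRNA minus control siRNA, with the 95% interval of limma. Filled points passed the threshold after adjustment over 26258 probes: the 3 Myc probes and 1 Mycn probe lie to the right of 0, the Mycl1 probe lies to the left, and the other Mycn probe sits at 0.02.

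Max, the shared partner of the other members, lay at 2.94, 3.12 and 2.86 in the controls and at 3.11, 3.06 and 2.84 with BRG1 siRNA. The groups overlapped, and the difference was 0.03 ± 0.10 (SE, 95% interval -0.22 to 0.29, adjusted p = 0.842).

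None of the MXD genes passed the test on the brightest probe. Mxd1, a repressor usually switched on as cells stop dividing, lay at -2.07, -1.88 and -2.19 against -1.91, -1.94 and -2.27 (difference 0.01 ± 0.13, adjusted p = 0.978). Its other probe differed by -0.14 (adjusted p over probes 0.472), and the groups overlapped on both. Mxd4 lay at -2.21, -2.28 and -2.17 against -2.28, -2.08 and -2.41 (difference -0.04 ± 0.09, adjusted p = 0.802), and its second tested probe differed by -0.02 (adjusted p over probes 0.929; -0.26 with the slide as a block, -0.16 without BRG1 siRNA replicate 2 and 0.10 without BRG1 siRNA replicate 1). The 95% intervals were wide, -0.31 to 0.32 for Mxd1 and -0.27 to 0.19 for Mxd4. The remaining Mxd4 probe was well above background on 2 of 3 control arrays and 0 of 3 BRG1 siRNA arrays and was not tested.

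Mxd3 and Mxi1 had all BRG1 siRNA arrays above all controls without passing the test. Mxd3, the MXD member linked to proliferating cells, lay at -0.72, -0.73 and -0.62 against -0.60, -0.52 and -0.61 (difference 0.11 ± 0.05, adjusted p = 0.163). Its other probe differed by 0.34 ± 0.14 (adjusted p over probes 0.157), again without overlap; it was 0.14 with the slide as a block, 0.18 without BRG1 siRNA replicate 3, and passed the test with spike-in scaling (adjusted p over probes 0.0255). Mxi1 lay at 0.33, 0.31 and 0.39 against 0.44, 0.41 and 0.49 (difference 0.10 ± 0.04, adjusted p = 0.149). A second Mxi1 probe, placed on the opposite strand, was well above background on 1 control array and 0 BRG1 siRNA arrays and was not tested.

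Mnt, the broadly expressed antagonist of MYC, lay at 2.75, 2.75 and 2.71 in the controls and at 2.65, 2.70 and 2.70 with BRG1 siRNA. The groups did not overlap, but the difference of -0.05 ± 0.04 did not pass the test (adjusted p = 0.344). With spike-in scaling it turned to 0.16. Its interval, -0.15 to 0.04, was among the narrowest of the 10 genes.

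Mga, which carries a T-box domain beside its MAX-binding zipper, was read by 3 probes along the gene on chromosome 2. The brightest lay at 1.80, 1.92 and 1.94 against 1.87, 1.88 and 1.91 (difference 0.0016 ± 0.05, adjusted p = 0.985). A_52_P189030, which lies upstream of it, read 0.65, 0.87 and 0.88 against 1.17, 1.05 and 0.91 (difference 0.24 ± 0.10, adjusted p over probes 0.136), with all BRG1 siRNA arrays above all controls. The gap between those probes shifted by 0.24 (two-sided exact permutation p = 0.1, the smallest possible), a pair also chosen after its values were seen. The remaining, dim probe differed by 0.26 (adjusted p over probes 0.256), and its groups overlapped. It was 0.14 without BRG1 siRNA replicate 1, 0.40 without BRG1 siRNA replicate 2, 0.12 with normexp and 0.50 with the slide as a block, and A_52_P189030 was 0.37 with that block.

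**Figure D3:**
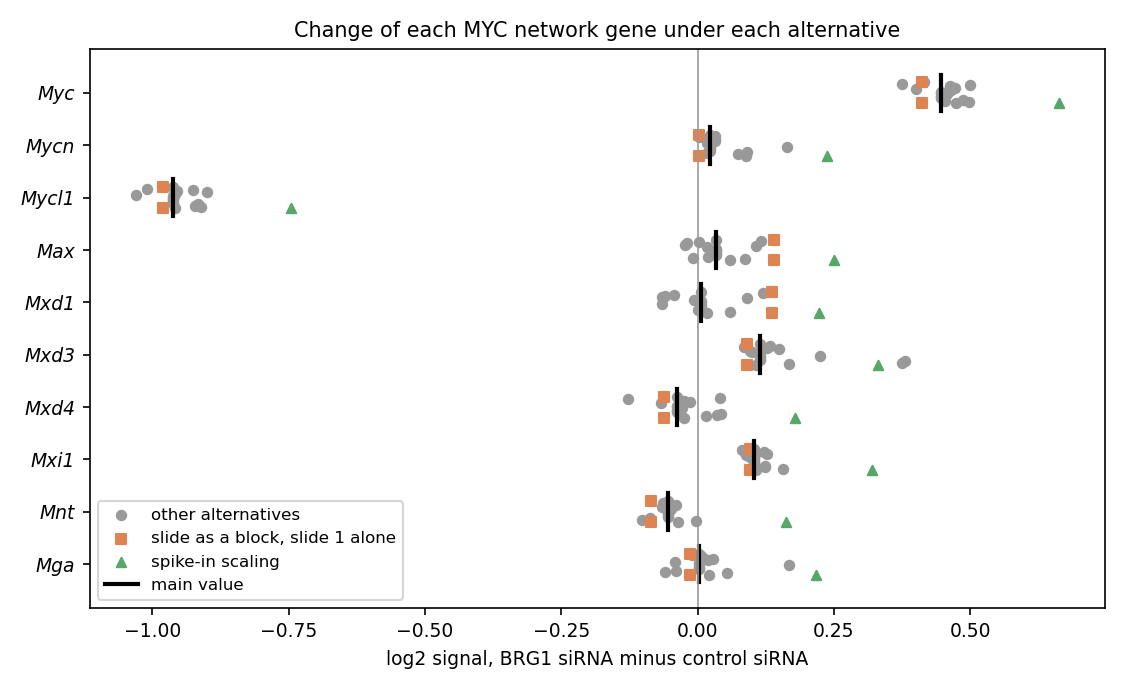
Change of each MYC network gene (log2 signal, BRG1 siRNA minus control siRNA) in every alternative processing. Black bars are the values reported, orange squares the fits with the slide as a block and on slide 1 alone, green triangles spike-in scaling, and grey points the rest. Myc stays to the right of 0 (0.37 to 0.66) and Mycl1 to the left (-1.03 to -0.75), while Max, Mxd1, Mxd4, Mnt and Mga cross 0.

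The genes around the network were read from lists of partners and targets, and those that passed are given by list. MLX and its partners MLXIP (MondoA) and MLXIPL (ChREBP), glucose-sensing relatives of the network, had 2 of 3 tested genes raised and 0 lowered. That is 66.7% against 23.3% of all genes, with a median of 0.29. Mlxip rose 1.23-fold (adjusted p = 0.0113) and Mlxipl 1.22-fold (adjusted p = 0.00787), and Mlx differed by 0.07 (adjusted p = 0.225). Both calls were lost with the slide as a block, and Mlxipl turned to -0.14 when its probes were averaged.

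Cofactors that MYC recruits to chromatin had 3 of 15 raised and 1 lowered, 26.7% against 23.3% of all genes, with a median of -0.01. Ccnt1, the cyclin of the elongation kinase P-TEFb, rose by 0.45 ± 0.06 (adjusted p = 0.00737). The acetyltransferase genes Gcn5l2 (Kat2a) and Ep300 rose by 0.28 and 0.27 and Htatip (Kat5) fell by 0.23. Gcn5l2 lost its call without any 1 of the 6 arrays and was at 0.18 with the slide as a block. Htatip was at -0.01 with spike-in scaling, and Ep300 lost its call in 10 of 20 alternatives. Trrap, the scaffold that MYC contacts, differed by -0.01 (adjusted p = 0.915).

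Of the enzymes that set the stability of MYC proteins, 4 of 20 were raised and 6 lowered, 50% against 23.3% of all genes, with a median of 0.02. Pim2, a kinase that stabilises MYC, lay at 1.49, 1.68 and 1.67 in the controls and at 0.85, 0.89 and 0.84 with BRG1 siRNA, a 1.69-fold fall (adjusted p = 0.00212). Pim1, of the same family, rose by 0.44 (adjusted p = 0.0362), a call lost in 11 of 20 alternatives, with the slide as a block (0.60) and without each array but BRG1 siRNA replicate 3 among them. Trim32 rose by 0.32 and Usp28, which opposes MYC degradation, by 0.27 (adjusted p = 0.0068). Trim32 lost its call in 9 of 20 alternatives and Usp28 in 3, the slide as a block among them for both. Fbxw7, the ubiquitin ligase subunit that marks phosphorylated MYC for destruction, rose by 0.19 (adjusted p = 0.0417). That call was lost in 13 of 20 alternatives, every fit with 1 array left out among them. Ppp2r5a (-0.33), Huwe1 (-0.29) and Stub1 (-0.25) fell, but with spike-in scaling they were at -0.12, -0.07 and -0.04 and did not pass. The lowered count was 1 without control replicate 1, 2 or 3 and 2 without BRG1 siRNA replicate 1 or 2. It was 3 with the slide as a block. The raised count was 0 with that block and 1 to 3 with 1 array left out. Of all genes, 7.84% were called in either direction with that block. Without control replicates 1, 2 and 3 that share was 14.4%, 10.3% and 9.19%. Without BRG1 siRNA replicates 1, 2 and 3 it was 12.8%, 11.1% and 24.8%.

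Corepressors used by MXD proteins, MNT and MIZ1 had 1 of 13 raised and 3 lowered, 30.8% against 23.3% of all genes. The median was -0.15. Ncor1, a nuclear receptor corepressor, rose by 0.54 ± 0.07 (adjusted p = 0.00605). Dnmt3a (-0.25), Sap18 (-0.23) and Sin3a (-0.22, adjusted p = 0.0124) fell, Sin3a being the scaffold that MXD proteins bind, but with spike-in scaling they were at -0.03, -0.02 and -0.0054 and did not pass. Partners of MGA in its Polycomb complex had 3 of 14 raised and 1 lowered, 28.6% against 23.3% of all genes. The median was -0.04. L3mbtl2 (0.31, adjusted p = 0.0445), Rybp (0.27) and Rnf2 (0.27) rose, calls each lost in 11 of 20 alternatives. Yaf2, the paralogue of Rybp, fell by 0.39 (adjusted p = 0.00428), and was at -0.17 and not called with spike-in scaling. Pcgf6, the subunit particular to that complex, differed by -0.04 (adjusted p = 0.636).

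Genes that MYC is known to induce had 4 of 67 raised and 3 lowered, 10.4% against 23.3% of all genes, and the difference between these shares was not tested. Their median change was -0.01, and the groups did not overlap for 31.3% against 44.0%. Cad, the enzyme of the first steps of pyrimidine synthesis, lay at 4.18, 4.12 and 4.18 against 4.58, 4.59 and 4.51, a 1.32-fold rise (adjusted p = 0.00393). Rpo1-2 (Polr1b), a subunit of RNA polymerase I, rose by 0.35, the arginine methyltransferase gene Prmt5 by 0.26 and Rnu3ip2 (Rrp9), a ribosomal RNA processing factor, by 0.21. The calls of Rpo1-2, Prmt5 and Rnu3ip2 were lost in 10, 14 and 11 of 20 alternatives. Ccnd2, the G1 cyclin D2, lay at 1.76, 1.61 and 1.66 against 0.83, 0.94 and 0.88, a 1.74-fold fall (adjusted p = 0.00165). Nme1 (-0.16) and Hspe1 (-0.14) fell by less, and both turned positive with spike-in scaling. The raised count was 7 without BRG1 siRNA replicate 3, 2 without control replicate 2 and 1 without any other array. The lowered count was 4 without BRG1 siRNA replicate 3 and 1 without any other array. Of all genes, 24.8% were called without BRG1 siRNA replicate 3 and 9.19% to 14.4% without any other array. The ribosome biogenesis genes Ncl (-0.09, adjusted p = 0.274) and Npm1 (-0.01, adjusted p = 0.97) and the polyamine enzyme gene Odc1 (-0.07, adjusted p = 0.455) did not pass.

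Genes that MYC is known to repress had 2 of 16 raised and 3 lowered, 31.25% against 23.3% of all genes. Their median was -0.04. Ndrg1, a stress and differentiation gene, lay at 0.72, 0.74 and 0.76 against 1.29, 1.38 and 1.36, a 1.52-fold rise (adjusted p = 0.00155). Gadd45b rose by 0.22, a call lost in 10 of 20 alternatives, the slide as a block among them. Cebpa (-0.62), Cdkn1b (-0.55) and Cdkn1c (-0.29) fell, the latter pair encoding cyclin-dependent kinase inhibitors. With spike-in scaling none of the 3 passed, at -0.40, -0.33 and -0.07. Their calls were lost in 7, 10 and 10 of 20 alternatives, the slide as a block among them each time. Cebpa was dim, with means of -4.02 and -4.64. The lowest signals well above background lay at -5.68 to -5.06 on the 6 arrays. Cdkn1a, which encodes p21, differed by -0.17 (adjusted p = 0.0824).

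Regulators known to act upstream of MYC genes had 4 of 15 raised and 3 lowered, 46.7% against 23.3% of all genes. Their median was -0.06. Lef1, a nuclear effector of WNT signalling, lay at 0.03, 0.07 and 0.08 against -1.16, -0.98 and -0.73, a 2.02-fold fall (adjusted p = 0.00387). E2f1, a cell cycle activator, rose by 0.59 ± 0.06 (adjusted p = 0.00305). Tcf3 (the gene now called Tcf7l1, by its accession) rose by 0.35, the pluripotency factor gene Klf4 by 0.34 and the LIF receptor gene Lifr by 0.20. The calls of Tcf3, Klf4 and Lifr were lost in 8, 8 and 12 of 20 alternatives, the slide as a block among them each time. Fubp1, which binds a far upstream element of the Myc gene, fell by 0.25 and Ctnnb1, encoding beta-catenin, by 0.21, but with spike-in scaling they were at -0.04 and 0.01.

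**Figure D4:**
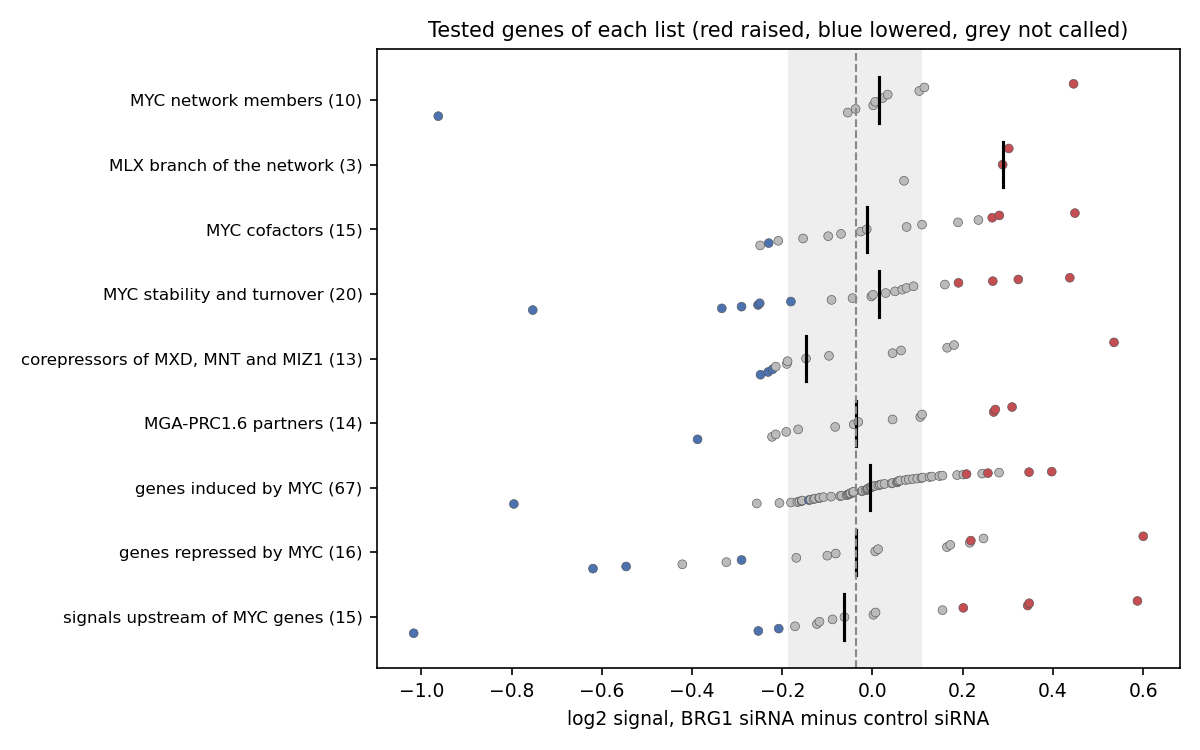
Change of every tested gene of each list (log2 signal, BRG1 siRNA minus control siRNA), red where raised, blue where lowered and grey where not called; the number tested is in parentheses. Black ticks are list medians, the dashed line is the median of all genes (-0.04) and the grey band their middle quartiles (-0.19 to 0.11). Most genes induced by MYC lie inside the band, and the farthest points are Lef1, Mycl1, Ccnd2 and Pim2 on the left and Ndrg1 and E2f1 on the right.

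Of the 41 called list genes named here, 13 kept their call with the slide as a block and 1, Lef1, within slide 1 alone. With median scaling 12 kept it, with spike-in scaling 17 and with no filter on dim probes 14. Calls over all genes fell as well, from 4139 to 1734, 1937 and 1740 in those 3 fits. They numbered 1392 with the slide as a block and 1641 to 4413 with 1 array left out. Whether the list genes lost calls more often than other genes was not tested. Spike-in scaling kept 3 of the 18 lowered genes, Lef1, Ccnd2 and Pim2. With 1 array left out, between 12 (without control replicate 3) and 35 (without BRG1 siRNA replicate 3) kept it, namely 14 without BRG1 siRNA replicate 2, 17 without BRG1 siRNA replicate 1 or control replicate 2, and 18 without control replicate 1. Cad, Ccnd2, Ccnt1, E2f1, Lef1, Ncor1, Ndrg1, Pim2 and Yaf2 kept it with the slide as a block and without each of the 6 arrays.

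Markers of the cell types the cultures could hold were read beside these results. ES cell markers were bright: Pou5f1 lay at 4.92 ± 0.06 and 4.59 ± 0.10 (SD, n = 3; fall of 0.33, adjusted p = 0.0206), Nanog rose by 0.41 (adjusted p = 0.0138), Sox2 differed by -0.16 (adjusted p = 0.0521), and 3 of 12 were raised and 1 lowered. With the slide as a block the Pou5f1 (-0.24) and Nanog (0.44) calls were lost. Fibroblast markers moved with the groups: 5 of 11 tested were lowered and 2 raised, and their summed level ran from 3.83 to 3.97 in the controls and from 3.26 to 3.36 with BRG1 siRNA. The median level of the same list went the other way, from -2.96 to -2.79 in the controls and from -2.65 to -2.41 with BRG1 siRNA. The lowered fibroblast markers were S100a4 (-1.09), Thy1 (-0.79), Col3a1 (-0.73), Col1a1 (-0.36) and Twist2 (-0.31). Mgp (1.17) and Lox (0.75) were raised. Col1a2 (0.01), Postn (-0.04), Dcn (-0.19) and Col6a1 (-0.22) did not pass the test, and Lum, Fap and Pdgfra were too dim to be tested. Trophoblast markers were lowered in 3 of 7 and raised in 1 (summed level 6.13 to 6.35 against 6.33 to 6.40, median level -1.58 to -1.40 against -2.47 to -2.35), endoderm markers lowered in 1 of 6, and blood markers raised in 1 of 5 with Ptprc too dim to be tested. Called shares were 33.3% of ES cell, 63.6% of fibroblast and 57.1% of trophoblast markers. Those of endoderm and blood markers were 16.7% and 20%, against 23.3% of all genes. The part of these cell types in the changes of Myc, Mycl1 and the lists was not tested.

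For Myc, the genes with the most similar pattern over the 6 arrays, by root mean square difference of centred log2 values among 4760 candidates, were Cuedc1 (0.0328), 5830400J07Rik (0.0344) and St3gal4 (0.0345), with rises of 0.44, 0.44 and 0.43. For the brightest Mycn probe, which barely varied, they were 4432406C05Rik (Tmem186; 0.0095), Sec31l1 (0.0101) and Arrdc4 (0.0115) among 16491.

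The E-box CACGTG, which reads the same on both strands and is the motif MYC-MAX and MXD-MAX pairs prefer, was searched in RefSeq promoter windows of 300 bases, 250 before to 50 after the start site (GRCm38.p6). It occurred in 3 of the 9 network genes with a window, which are all but Myc, at -3 in Max, -219 in Mxd4 and -123 in Mnt, none of which passed the test. It occurred in 8.09% of all 27025 genes with a window and in 17 of 57 (29.82%) of the genes induced by MYC. Most other lists also lay above 8.09%. The shares were 66.67% for the MLX branch (2 of 3), 23.08% for upstream signals, 16.67% for repressed genes and 15.79% for stability. Corepressors had 2 of 10, and the Polycomb partners were at 9.09%. Cofactors, at 7.14%, were the only list below. Differences between these shares, and the part of GC content in them, were not tested. A match describes letters in a window and shows no binding.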

How the data were processed

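Array design 014868 was scanned and extracted by the authors with Agilent Feature Extraction 9.5.3.1, per the file headers (9.5 per the submitters' processing notes), and the deposited values are spot intensity already background-subtracted by that software. The deposited value table was identical to it (largest difference 0), so it is linear and uncentred; its medians were 186, 181 and 173 for the control replicates 1 to 3 and 167, 162 and 173 for the BRG1 siRNA replicates. Here log2 of the processed signal was set against each array's 75th percentile, control spots (1639 of 45018) and outlier spots (387 on at least 1 array, none of a member) were left out, spots of a probe were averaged, and limma 3.58.1 (lmFit, eBayes, two-sided) was run in R 4.3.3 over 17758 genes and, separately, 26258 probes. Arrays, 3 a group, limit the precision. The limma fit alone was tested on simulated arrays with known changes, which held no slide effect. Lists name older and newer symbols once, updated by accession through a GRCm38.p6 table. The members and lists were chosen with earlier results of these data known.

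Named genes are Smarca4, the members and up to 4 called genes per list and direction with the largest change (6 for induced genes). The others are 10 fixed genes, 3 marker genes, the fibroblast markers, and the 3 genes most like Myc and Mycn. Alternatives were other scalings, normexp (offset 50), other filters, slide and replicate number as blocks, other probe summaries, trend and robust moderation, the value table, each array left out, and, chosen after seeing the data, the median over spots. Same-numbered arrays of the groups deviated together with correlations of -0.31, 0.105 and -0.018, so the numbers were not taken as pairs.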

Additional observations from a re-analysis of the deposited data

How the results depend on the processing

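Direction of the member changes that passed held in every alternative run; over all members and alternatives 202 changes kept their side of the threshold, 7 lost it (Myc 6, Mycl1 1) and 1, Mycn, gained it. Genes called, 4139 as reported, numbered 1734 with median scaling, 1937 with spike-in scaling, 1740 with no filter on dim probes, 1392 with the slide as a block, 59 on slide 1 alone and 1641 to 4413 with 1 array left out. Members raised numbered 0 with no filter, with the slide as a block and on slide 1 alone, 2 with probes averaged or each on its own, and 0 to 1 with 1 array left out; members lowered numbered 0 on slide 1 alone, where the lone BRG1 siRNA array is assumed to vary like the controls. Genes induced by MYC had 4 raised as reported, and 1 with median scaling, no filter or the slide as a block, 7 with normexp and quantile, 2 with spike-in scaling, 0 on slide 1, 8 with trend and robust moderation and 1 to 7 with 1 array left out. They had 3 lowered as reported, and 1 with quantile, median or spike-in scaling, no filter or the slide as a block, 6 with normexp and the 75th percentile or with trend and robust moderation, 0 on slide 1 and 1 to 4 with 1 array left out. The counts of the other lists moved by over 1.5 times in 130 of 280 cases.

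Fits with the replicate number as a block called 1945 genes, with 1 induced gene raised and 1 lowered; the second Mycn probe lost its call (adjusted p over probes 0.0529), and Myc and Mycl1 kept theirs. The numbers are not taken as pairs.

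List medians moved with scaling, the slide and single arrays. With spike-in scaling they were 0.23 for the members, 0.50 for the MLX branch, 0.20 for cofactors, 0.23 for stability, 0.069 for corepressors, 0.18 for the Polycomb partners, 0.21 for induced genes, 0.18 for repressed genes and 0.15 for upstream signals, against a median of 0.18 for all genes. With median scaling they were 0.067 for the members, 0.34 for the MLX branch, 0.068 for stability, 0.016 for the Polycomb partners and 0.048 for induced genes. Quantile normalization gave 0.0499 for stability, 0.0073 for the Polycomb partners and 0.059 for induced genes, and normexp with quantile 0.10 for cofactors, 0.027 for the Polycomb partners and 0.055 for induced genes. With normexp and the 75th percentile the Polycomb partners were at 0.0002. With probes averaged the medians were 0.069 for the members, 0.075 for cofactors and 0.032 for the Polycomb partners, and with each probe on its own 0.069 for the members and -0.0020 for the Polycomb partners. The slide as a block and slide 1 alone gave 0.017 for upstream signals, 0.046 for the members, -0.092 for cofactors, -0.011 for stability and -0.026 for induced genes. With 1 array left out the members ran from -0.0049 to 0.0612 the Polycomb partners from -0.0544 to -0.0193, cofactors from -0.063 to 0.044, stability from -0.0045 to 0.035 and induced genes from -0.011 to 0.013. Smarca4 missed the threshold with spike-in scaling (-0.39) and on slide 1 alone (-0.54). Mlxipl reversed to -0.14 with probes averaged, and Nme1 (0.059), Hspe1 (0.075) and Ctnnb1 (0.0083) with spike-in scaling; the cause was not tested.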
